A study of Mus musculus with 5 samples.

Results

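A set of 10 genes of the IL-2 receptor and STAT5 pathway was followed in RNA polymerase II (Pol II) CUT&Tag data of regulatory T (Treg) cells. They were Il2ra, Il2rb, Il2rg, Jak1, Jak3, Stat5a, Stat5b, Cish, Socs1 and Socs2, chosen by name because the mice had received IL-2. A merged Pol II peak belonged to a gene when its midpoint lay in the gene body of the mouse genome mm10 or in the 3 kb upstream, and the counts of a gene were summed over its peaks. All 10 genes had a peak. They held 114 of the 56615 merged peaks and were 10 of the 12927 genes with a peak.

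IL-2 binds a receptor of the alpha chain CD25 (Il2ra), the beta chain CD122 (Il2rb) and the common gamma chain (Il2rg). The beta and gamma chains carry the kinases JAK1 and JAK3, which phosphorylate STAT5A and STAT5B, and these enter the nucleus and bind DNA at the palindrome TTCNNNGAA. CISH, SOCS1 and SOCS2 are inhibitors that STAT5 induces and that damp cytokine signalling in turn. Treg cells depend on this pathway for survival and for Foxp3 expression, and they hold CD25 at a high level.

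The control mice (Ctrl, Foxp3CreSetd2flox/+) carried a Foxp3-driven Cre-YFP and 1 floxed allele of Setd2, the methyltransferase that trimethylates lysine 36 of histone H3. The knockout mice (KO, Foxp3CreSetd2flox/flox) carried the same Cre and both alleles floxed, so Cre acted in Foxp3-expressing cells and the Ctrl cells were themselves heterozygous. All mice were C57BL/6, 8 weeks old and of pooled sexes, and all received IL-2 (1 μg) complexed with its antibody (5 μg) on 3 days and were killed 48 h later. There was no untreated group, so the effect of IL-2 itself could not be measured. Splenic CD3+CD4+Foxp3-YFP+ cells gave 80000 nuclei per library, with 2 Ctrl and 2 KO libraries. The study states that cells of 2 mice were pooled and treats each library as a biological replicate. Whether each library had mice of its own is not clear, so the p-values measure the spread between libraries, which may be technical.

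The libraries held 4489646 to 13351007 counts in peaks, and in both genotypes the library numbered 1 was the deeper. Pol II over Setd2 itself, summed over 9 peaks, was 512 and 518 normalized counts in Ctrl and 455 and 569 in KO. Pol II peaks at the locus do not resolve the floxed exon, so these values did not check the deletion. All 6 Treg markers and all 6 T cell markers had Pol II peaks, with summed normalized counts of 26463 to 32394 and 14662 to 14768 per library. Cd8a and Cd8b1 and the 4 NK cell markers had none, and 2 of 5 B cell markers (Cd79a and Cd79b), 2 of 5 myeloid markers (Cd68, whose peak is shared with Mpdu1, and Spi1) and 1 of 4 erythroid markers (Klf1) had one. The summed B cell markers ranged from 110 to 118 in Ctrl and from 88.6 to 138 in KO, the myeloid markers from 1635 to 1763 in Ctrl and from 1419 to 1524 in KO, and the erythroid markers from 196 to 211 in Ctrl and from 189 to 224 in KO. The part of these cells in the results below was not tested.

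The palindromes that STAT5 binds are shown for Cish, Socs2 and Il2ra, since Cish and Socs2 each held a closely spaced pair, centred 642 and 267 bp after the annotated gene start, and Il2ra held 20 palindromes in its peaks. The sequences are from GRCm38.p6 (mm10), read on the strand of the gene, with the letters of TTCNNNGAA in capitals. The first Cish stretch is chr9:107296654-107296683 and the second chr9:107296771-107296799, both on the plus strand and overlapping an annotated UTR. A further Cish palindrome, TTCTAGGAA at chr9:107296764-107296772, is cut by the start of the second stretch. Only its end is printed there, in lower case, so the site labelled single has a close neighbour. The Socs2 stretch is chr10:95416884-95416943 on the minus strand and the Il2ra stretch chr2:11645520-11645594 on the plus strand in an intron.
Cish pair: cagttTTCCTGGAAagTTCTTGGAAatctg
Cish single: aagatgaggcTTCCGGGAAgggctgggac
Socs2 pair: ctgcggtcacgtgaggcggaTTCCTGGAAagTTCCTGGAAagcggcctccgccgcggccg
Il2ra pair: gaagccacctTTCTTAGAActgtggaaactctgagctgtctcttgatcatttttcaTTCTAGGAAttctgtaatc

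In Cish and in Socs2 the starts of the paired palindromes were 11 bases apart, while those of the printed Il2ra pair were 46 bases apart. The printed pair is not the closest of Il2ra. Another intron peak held TTCGCTGAA at chr2:11664744-11664752 and TTCCCAGAA at chr2:11664764-11664772. The RefSeq table of promoters (250 bases before to 50 after each start) held 10 promoters of 8 members, with no entry for Il2rb or Socs2. Of these, only the Cish promoter matched TTCNNNGAA, at positions 1 and 12 counted from the RefSeq start. TTCNNNGAA occurred in 8.30% of 32851 promoters and at least 2 times in 0.457% of them, and TTCCNGGAA in 1.15%. Both patterns are their own reverse complement, so the search covered both strands, and every TTCCNGGAA is also a TTCNNNGAA.

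Within the Pol II peaks, TTCNNNGAA occurred 0.269 times per kb over all 56615 peaks and in 18.1% of them. The 114 member peaks held 68 matches, or 0.374 per kb, in 43 peaks. Il2ra had 20 matches in 9 of its 17 peaks, or 0.783 per kb. Jak1 had 24 matches in 47 peaks (0.358 per kb), and 3 of them were TTCCNGGAA in introns. TTCCNGGAA occurred 0.0322 times per kb over all peaks and 0.0275 times per kb over the member peaks. It was in 2.66% of all peaks and in 4 of the 114 member peaks. Socs2 had 2 matches, both TTCCNGGAA and both in the pair above, in 3.56 kb of peak (0.562 per kb). No match was found in the peaks that the midpoint rule gave to Jak3 and Socs1, which says only that these letters were absent from those windows. A further peak that overlaps the Socs1 gene but has its midpoint outside the window held TTCCTGGAA at chr16:10783380-10783388, overlapping an annotated UTR. A match is a description of the sequence and no measurement of STAT5 binding.

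To compare genes, the Pol II level is given as CPM (counts divided by the library total and put on one scale) per kb of peak, as the mean of the Ctrl libraries. It was highest over Il2rb at 55.7, above 98.8% of genes with a peak, followed by Socs1 at 44.8, Il2rg at 29.7, Cish at 25.2, Stat5a at 21.6, Socs2 at 20.9, Stat5b at 20.9, Jak1 at 19.9, Il2ra at 18.2 and Jak3 at 13.4. The median of all genes was 18.3, so 8 members were above it in Ctrl and Il2ra and Jak3 were below. The Ctrl libraries of Il2ra (19.2 and 17.2) and of Socs2 (23.7 and 18.2) lay on either side of that median. The Cish level is that of 1 upstream peak of 965 bp, and the peak over its body, which the midpoint rule left out, was at 51.6. The Ctrl libraries of Il2rb (53.8 and 57.6), Socs1 (52.1 and 37.5) and Il2rg (33.7 and 25.7) did not overlap with each other. Those of Stat5a, Socs2, Stat5b and Jak1 lay within 18.2 to 23.7 and could not be ordered beyond the spread of Socs2 (23.7 and 18.2) and Stat5b (23.3 and 18.4).

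The length of gene under Pol II gave a different order. The peaks of Jak1 added up to 67.0 kb, those of Stat5b to 36.0 kb and those of Il2ra to 25.5 kb, against a median of 1.80 kb per gene. Peaks covered 100% of the Il2rg and Cish gene bodies, 97.5% of Il2rb, 76.7% of Socs1 and 63.9% of Stat5a. The median of 11874 protein-coding genes was 6.65%. Coverage counts every peak that overlaps the gene, also those with a midpoint outside the window. Jak3 was covered over 28.7% and Socs2 over only 10.1%, where the peaks stopped within the first part of the gene.

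**Figure D1:**
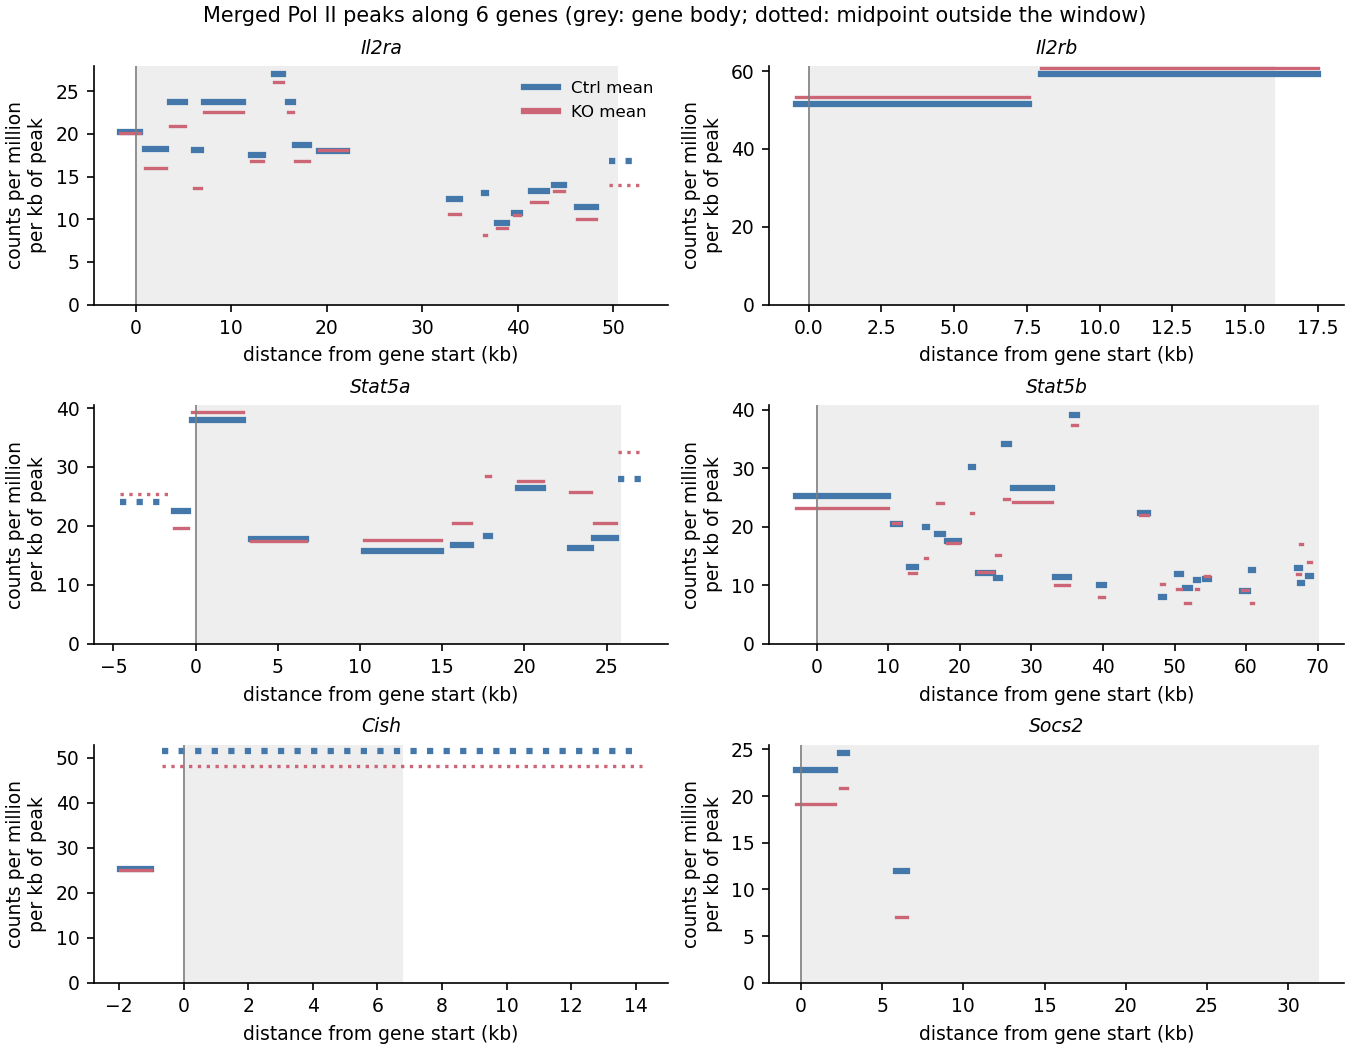
Merged Pol II peaks along 6 genes, drawn as horizontal lines from peak start to peak end against the distance from the gene start in kb, at their level in CPM per kb of peak (blue, mean of 2 Ctrl libraries; red, mean of 2 KO libraries). Grey marks the gene body and dotted lines mark peaks that overlap a gene but have their midpoint outside the window. Under the midpoint rule Il2rb has 2 long peaks and Il2ra 17, and the 14.9 kb peak over Cish is dotted.

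Pol II over the 10 genes did not differ detectably between KO and Ctrl Treg cells at this depth. DESeq2 with Benjamini-Hochberg adjustment over all 12927 genes called 0 of the 10 members at an adjusted p-value under 0.05, against 0.101% of all genes (13 genes), and the unadjusted p-values ran from 0.163 to 0.938. None was under 0.05 before adjustment either, against 2.89% of all genes. edgeR called 0 members as well, and 0 of the other genes, and it placed 4.87% of genes under 0.05 before adjustment. Of the log2 fold changes (KO over Ctrl), 5 were above 0 and 5 below, with a median of -0.015 against -0.0046 for all genes. The 95% intervals of the 10 log2 fold changes lay between -0.72 and 0.46, so larger differences were outside the interval of every member. The nuclei were measured in bulk, so fewer cells with Pol II on a gene and less Pol II per cell cannot be told apart.

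**Figure D2:**
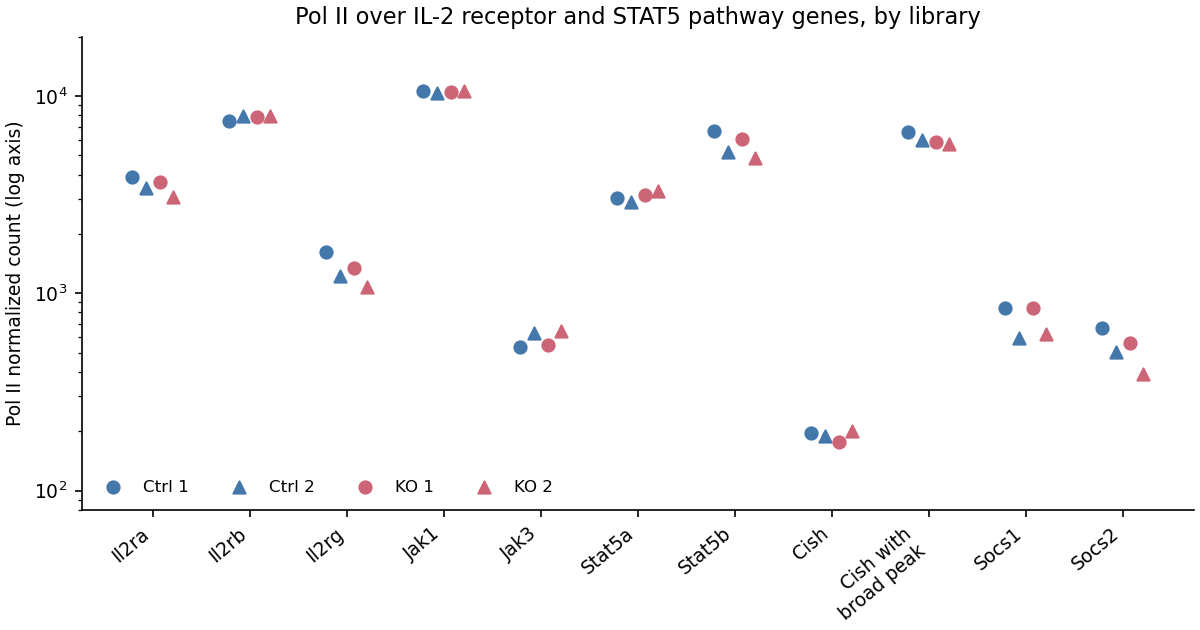
Pol II normalized counts of the 10 genes in each library, on a log axis (blue, Ctrl; red, KO; circles, libraries numbered 1; triangles, libraries numbered 2), with Cish also shown with all peaks that overlap it. In Stat5a alone, under the midpoint rule, both KO points lie above both Ctrl points.

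The receptor chains come first. Il2ra encodes CD25, which gives the receptor its high affinity, and lies at chr2:11642807-11693193 on the plus strand. Summed over 17 peaks, it had 3891 and 3433 normalized counts in Ctrl and 3681 and 3069 in KO. The groups overlapped, KO 2 was the lowest, and the libraries numbered 1 were the higher in both genotypes. The log2 fold change was -0.12 ± 0.14 (SE), with an adjusted p-value of 1.00 by DESeq2.

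All 17 Il2ra peaks had a log2 fold change below 0, from -0.66 to -0.020, with a median of -0.12. The peaks share their libraries and are not replicates, none had an unadjusted p-value under 0.05, and in 1 of 17 (5.88%) both KO libraries were below both Ctrl libraries, against 32.3% of all peaks whose groups did not overlap in either direction. The sign rested on single libraries. Without Ctrl 1, 8 of 17 peaks were lower, without KO 2, 9 of 17, and the gene value without KO 2 was 0.0076. The peak that spans the gene start (2102 bp) had 387 and 289 normalized counts in Ctrl and 388 and 273 in KO, so its groups overlapped. The highest level per kb was in an intron peak of 927 bp centred 14954 bp after the gene start, at 27.0 CPM per kb, with 216 and 182 normalized counts in Ctrl and 192 and 184 in KO. A further peak of 3472 bp over the gene end had its midpoint outside the window and was left out. It had 501 and 426 normalized counts in Ctrl and 394 and 361 in KO, at a log2 fold change of -0.29 ± 0.22. Summed over all overlapping peaks, Il2ra had a log2 fold change of -0.13 ± 0.13, and its groups overlapped. Peaks with a midpoint within 3 kb of any annotated start held 22.4% ± 0.22 (SD) of the Il2ra counts in Ctrl and 22.3% ± 0.56 in KO. They include peaks centred 36565 to 39873 bp into the gene, so this is not the share at the gene start.

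Il2rb encodes CD122, the signalling chain shared with IL-15, and lies at chr15:78479256-78495271 on the minus strand. It had 2 peaks of 8031 and 9527 bp that covered nearly the whole gene. The sums reached 7513 and 7926 normalized counts in Ctrl and 7799 and 7966 in KO. The 4 libraries lay close together, and the KO values lay within and just above the Ctrl range. Il2rb had a log2 fold change of 0.030 ± 0.11, with a 95% interval of -0.19 to 0.25. The peak over the gene start had 3256 and 3316 normalized counts in Ctrl and 3283 and 3381 in KO, and the downstream peak, the higher per kb, 4438 and 4527 in Ctrl and 4565 and 4459 in KO.

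Il2rg encodes the common gamma chain, which IL-2 shares with IL-4, IL-7, IL-9, IL-15 and IL-21, and lies at chrX:101264378-101268255 on the minus strand. Its 1 peak of 6075 bp spans the gene and also belongs to Gm614 and Gm20489, and CUT&Tag carries no strand, so the counts cannot be credited to Il2rg alone. They were 1628 and 1221 normalized in Ctrl and 1339 and 1080 in KO, with KO 1 between the Ctrl libraries and KO 2 the lowest. Il2rg had a log2 fold change of -0.23 ± 0.17 at an unadjusted p-value of 0.175 and an adjusted p-value of 1.00 by DESeq2. Leaving out 1 library gave -0.42 to -0.0065, and the lower bound, without Ctrl 2, had an unadjusted DESeq2 p-value of 0.0438.

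The kinases followed. Jak1, at chr4:101152367-101265282 on the minus strand, encodes the kinase bound to the beta chain. It had 10674 and 10354 normalized counts in Ctrl and 10503 and 10653 in KO, summed over 47 peaks. Both KO values lay within the Ctrl range, and the log2 fold change was 0.0085 ± 0.11. Of the 47 peaks, 23 were above 0 and 24 below. In 11 (23.4%) the groups did not overlap, 7 with KO above and 4 with KO below, against 32.3% of all peaks.

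The peak at the Jak1 gene start (1990 bp) had 443 and 351 normalized counts in Ctrl and 479 and 339 in KO. The highest level per kb was not there but in an intron peak of 2310 bp centred 25202 bp into the gene, at 50.6 CPM per kb in Ctrl, above 98.7% of all peaks. It had 783 and 1066 normalized counts in Ctrl and 757 and 1012 in KO, the libraries numbered 2 being the higher in both genotypes. The share of Jak1 counts in peaks with a midpoint within 3 kb of any annotated start was 18.8% ± 0.82 in Ctrl and 19.4% ± 1.86 in KO. It includes peaks centred 79471 to 112612 bp into the gene.

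Jak3, at chr8:71676296-71690575 on the plus strand, encodes the kinase bound to the gamma chain. Its 7 peaks, 2 of them shared with a neighbouring gene, had 534 and 628 normalized counts in Ctrl and 544 and 644 in KO. The groups overlapped and in both genotypes the library numbered 2 was the higher. Jak3 had a log2 fold change of 0.029 ± 0.18, and of -0.023 with the shared peaks left out. The peak over the gene start, also the highest per kb, had 218 and 187 normalized counts in Ctrl and 207 and 204 in KO.

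The STAT5 genes lie side by side on chromosome 11. Stat5a, at chr11:100859351-100885169 on the plus strand, was the only member in which both KO libraries lay above both Ctrl libraries. It had 3040 and 2914 normalized counts in Ctrl and 3137 and 3288 in KO, over 9 peaks. The gap between the groups was small beside the values, and 34.3% of all genes had groups that did not overlap in one direction or the other. Stat5a had a log2 fold change of 0.11 ± 0.12, with an unadjusted p-value of 0.370 and an adjusted p-value of 1.00 by DESeq2. It was 0.076 to 0.14 when 1 library was left out.

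The values of the Stat5a peaks differed along the gene. The peak over the start (3047 bp), the highest per kb at 38.0 CPM per kb in Ctrl, had 1008 and 836 normalized counts in Ctrl and 985 and 881 in KO, so the groups overlapped. An intron peak near the 3′ end, chr11:100882128-100883406, centred 23416 bp after the gene start, had 148 and 182 normalized counts in Ctrl and 234 and 279 in KO. Both KO libraries were above both Ctrl libraries there. Its log2 fold change of 0.64 ± 0.27 had an unadjusted DESeq2 p-value of 0.0194 and an adjusted p-value of 1.00, and it was 0.50 to 0.79 without 1 library. Of the 114 member peaks it alone (0.877%) passed 0.05 before adjustment by DESeq2, against 1.53% of all peaks. The 260 bp peak centred 17777 bp after the start had 33.8 and 41.3 in Ctrl and 53.5 and 61.3 in KO, also without overlap, and it was chosen for mention after its values were seen. In the upstream peak of 869 bp, chosen likewise, the KO libraries were the lower, with 144 and 167 in Ctrl and 137 and 129 in KO. In 3 of the 9 Stat5a peaks (33.3%) the groups did not overlap, against 32.3% of all peaks. Peaks that overlap the Stat5a window but have their midpoint outside it were left out. The left-out upstream peak had 617 and 508 in Ctrl and 620 and 540 in KO. The left-out peak at the gene end had 293 and 347 in Ctrl and 360 and 375 in KO.

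Peaks with a midpoint within 3 kb of any annotated Stat5a start included those centred 17777 and 20372 bp into the gene. Their share of the Stat5a counts was 46.7% (95% exact binomial interval 45.2 to 48.2) in Ctrl 1 and 49.7% (47.5 to 51.9) in Ctrl 2. It was 46.1% (44.8 to 47.5) in KO 1 and 45.3% (43.1 to 47.6) in KO 2. The KO shares were the lower with a KO mean minus Ctrl mean of -2.48 percentage points, but the intervals of Ctrl 1 and both KO libraries overlapped. The intervals cover counting error only.

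Stat5b, at chr11:100780731-100850724 on the minus strand, had 6665 and 5191 normalized counts in Ctrl and 6095 and 4836 in KO over 25 peaks. The libraries numbered 1 were the higher in both genotypes, and the groups overlapped. The log2 fold change was -0.12 ± 0.15, and without Ctrl 1 it was 0.078. A peak of 12929 bp spans the gene start and had 3213 and 1998 normalized counts in Ctrl and 2848 and 1833 in KO. The difference between the libraries of a genotype was larger there than the difference between the genotypes. The highest level per kb was in an intron peak of 682 bp centred 36015 bp into the gene, with 245 and 180 normalized counts in Ctrl and 213 and 186 in KO. Of the 25 peaks, 8 were above 0 and 17 below. In 7 (28.0%) the groups did not overlap, 2 with KO above and 5 with KO below, against 32.3% of all peaks.

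**Figure D3:**
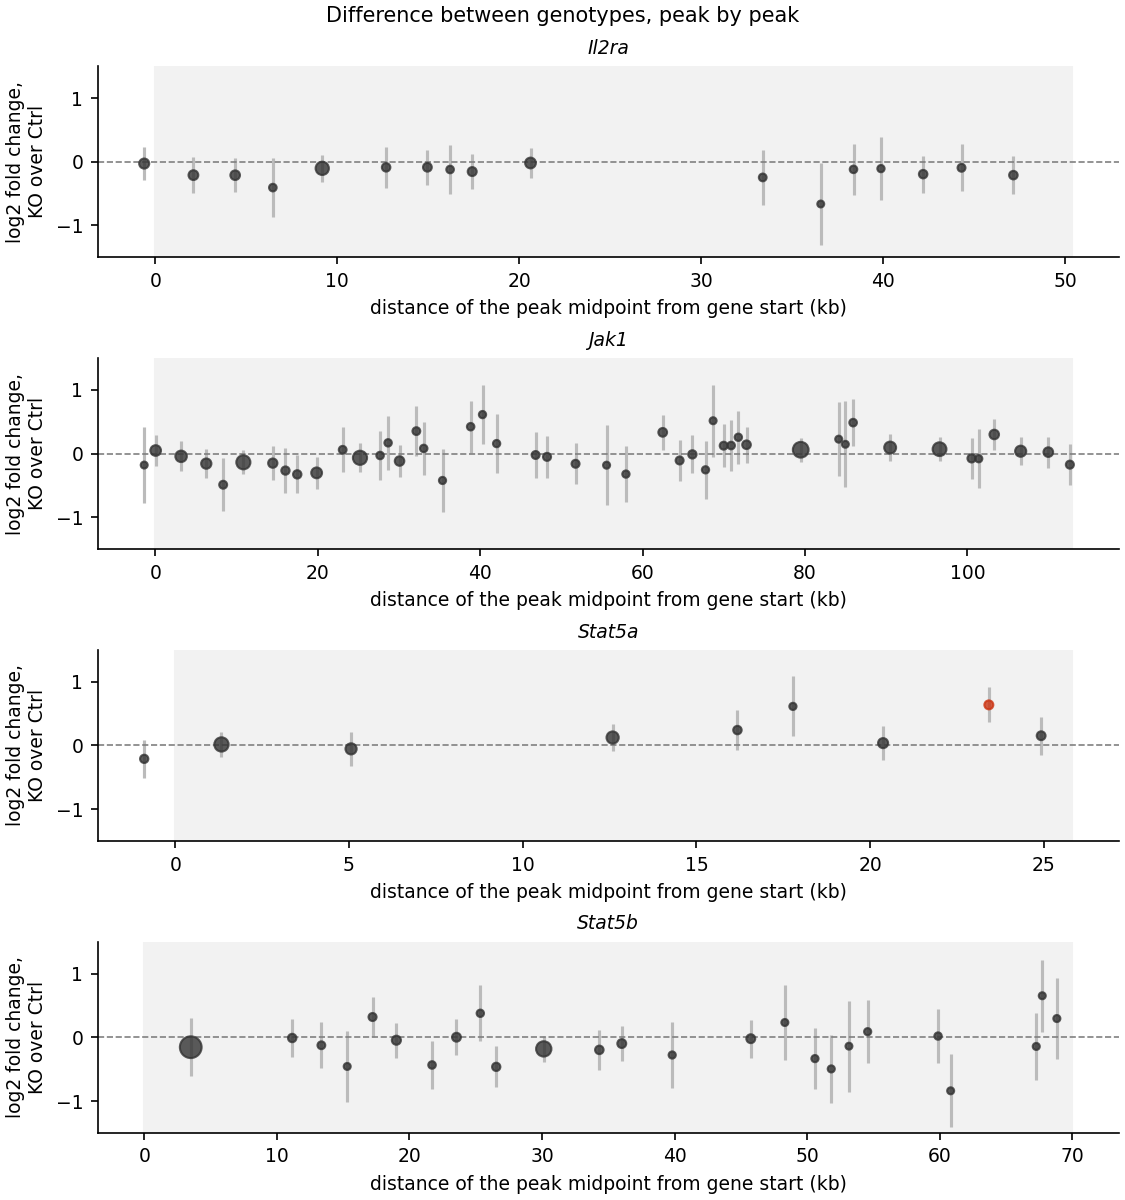
Log2 fold change of Pol II (KO over Ctrl) of each peak of Il2ra, Jak1, Stat5a and Stat5b against the distance of the peak midpoint from the gene start in kb; bars are 1 standard error, point area grows with the mean normalized count, and grey marks the gene body. All 17 Il2ra points lie below 0 and the red Stat5a point is the peak with an unadjusted p-value of 0.0194.

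The inhibitors were next. CISH blocks STAT5 docking at the receptor. Cish lies at chr9:107296026-107302784 on the plus strand, and under the midpoint rule it rested on 1 peak of 965 bp, centred at -1490 bp from the gene start. That peak gave 197 and 188 normalized counts in Ctrl and 177 and 201 in KO. The groups overlapped, and the log2 fold change was -0.038 ± 0.25.

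The body of Cish lay inside a peak of 14861 bp, chr9:107295362-107310222, whose midpoint fell 8 bp past the end of the gene and which the rule therefore left out. This peak, longer than 99.9% of all peaks, held both Cish stretches printed above and 15 palindromes in all (1.01 per kb). Its level in Ctrl was 51.6 CPM per kb, above 98.9% of peaks. With every peak that overlaps Cish or its 3 kb upstream summed, Ctrl had 6541 and 5958 normalized counts and KO had 5878 and 5716, so the KO libraries were the lower pair. This sum had a log2 fold change of -0.11 ± 0.12, at an unadjusted p-value of 0.349 and an adjusted p-value of 1.00 by DESeq2. Under the midpoint rule, 34.3% of all genes had groups that did not overlap in one direction or the other. The broad peak alone, with the size factors of the peak fit, had 6502 and 5708 in Ctrl and 5741 and 5426 in KO. Its groups overlapped. The broad peak runs past the gene and other genes under it cannot be told apart from Cish.

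SOCS1 binds and inhibits the JAK kinases. Socs1, at chr16:10782240-10785536 on the minus strand, had 841 and 596 normalized counts in Ctrl and 846 and 623 in KO over 2 peaks. The libraries numbered 1 were far above those numbered 2 in both genotypes, and the genotypes overlapped. Socs1 had a log2 fold change of 0.035 ± 0.20, and it ran from -0.21 to 0.31 when 1 library was left out. The peak over the start, the higher per kb, had 707 and 433 normalized counts in Ctrl and 681 and 456 in KO.

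Socs2, at chr10:95385362-95417180 on the minus strand, encodes a SOCS protein best known for damping growth hormone signalling. It had 670 and 507 normalized counts in Ctrl and 560 and 389 in KO over 3 peaks. KO 2 was the lowest and KO 1 lay between the Ctrl libraries. The log2 fold change was -0.30 ± 0.22, the largest in size among the 10, with an unadjusted p-value of 0.163 and an adjusted p-value of 1.00 by DESeq2. It was -0.60 to -0.075 without 1 library, and the value without KO 1 had an unadjusted DESeq2 p-value of 0.0396.

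The Socs2 peak over the start, which holds the printed pair, had 525 and 354 normalized counts in Ctrl and 448 and 276 in KO. The peak with the highest level per kb, 453 bp centred 2622 bp after the start, had 102 and 75.8 in Ctrl and 76.0 and 71.5 in KO. The third, 689 bp centred 6200 bp after the start, had 59.7 and 71.6 in Ctrl and 39.8 and 35.8 in KO. It was the only Socs2 peak (33.3% of the 3) without overlap between the groups, against 32.3% of all peaks. Its log2 fold change was -0.78 ± 0.45 at an unadjusted DESeq2 p-value of 0.0866, and it was chosen for mention after its values were seen.

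**Figure D4:**
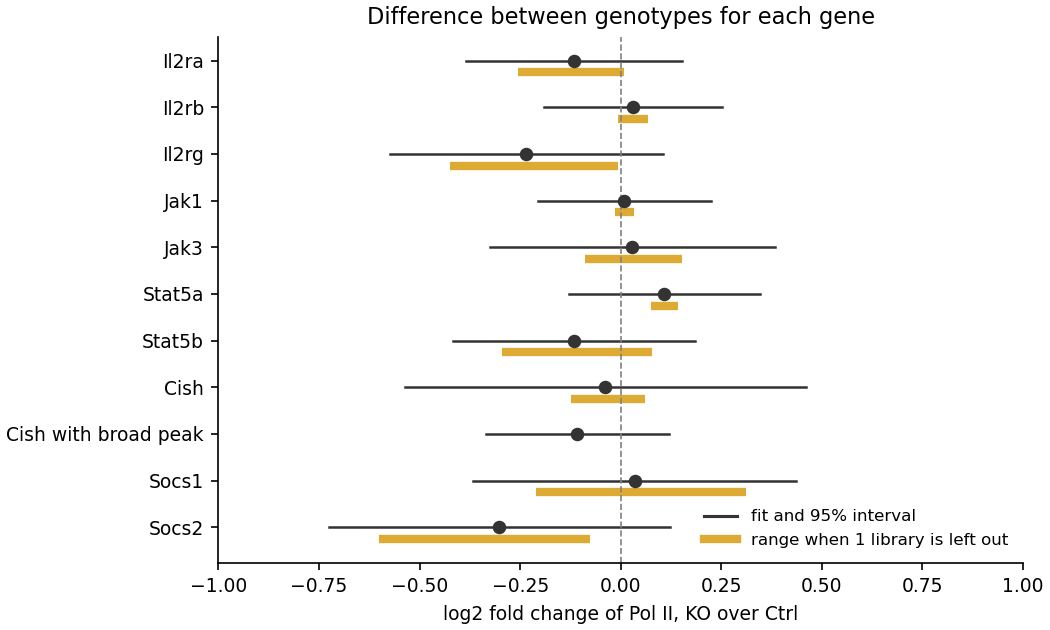
Log2 fold change of Pol II (KO over Ctrl) for each gene, with its 95% interval (black) and the range obtained when each library was left out in turn (yellow), which is not drawn for Cish with the broad peak. Every 95% interval includes 0, and the leave-one-out range of Il2rg, Stat5a and Socs2 stays on one side of 0.

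Over all 114 member peaks, 46 log2 fold changes were above 0 and 68 below, and DESeq2 called 0, as it called 0.0% of all peaks. edgeR called 0 of them, against 0.0477% of all peaks, and placed 2 of them under 0.05 before adjustment, against 3.62% of all peaks. In 24 peaks (21.1%) the groups did not overlap, 11 with KO above and 13 with KO below, against 32.3% of all peaks. By midpoint, 94 peaks lay in introns, 14 in exons and 6 upstream, and 111 belonged to 1 gene only.

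The libraries of a genotype differed from each other more than the genotypes did for several members. Normalized counts of 5 members (Il2ra, Il2rg, Stat5b, Socs1 and Socs2) were higher in the library numbered 1 in both genotypes, those of Il2rb and Jak3 were higher in the library numbered 2, and 3 were mixed. Of all genes, 33.1% were higher in number 1 in both genotypes and 33.9% in number 2. The mean log2 ratio of library 1 over 2 was 0.47 for Socs1, 0.46 for Socs2, 0.36 for Il2rg and 0.35 for Stat5b. The libraries numbered 1 were the deeper ones, and the part of depth in these differences was not tested.

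The wider pathway was read from 48 further genes in 6 lists, of which 47 had a peak (Socs6 had none). Of these, 26 were above 0 and 21 below, with a median log2 fold change of 0.026. DESeq2 called 0 of them, against 0.101% of all genes, and edgeR called 0. Before adjustment, 1 was under 0.05 by DESeq2, against 2.89% of all genes. In 15 of the 47 the groups did not overlap, in one direction or the other, against 34.3% of all genes.

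Of the other chains that pair with the gamma chain, 1 was above 0 and 4 below. Il15ra, the high-affinity IL-15 chain whose gene neighbours Il2ra, had 740 and 760 normalized counts in Ctrl and 568 and 568 in KO, the KO libraries being the lower pair. Its log2 fold change was -0.40 ± 0.16, with an unadjusted p-value of 0.0134 and an adjusted p-value of 1.00 by DESeq2. Il9r was the highest of that list at 0.066. The other kinases Jak2 and Tyk2 had 0.082 and 0.12.

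The other lists held no gene with an unadjusted p-value under 0.05. The SOCS genes ran from -0.10 (Socs4) to 0.22 (Socs3), the other inhibitors from -0.17 (Ptpn11) to 0.094 (Pias1), and the adaptors with the PI3K and MAPK arm from -0.11 (Gab2) to 0.16 (Shc1). Of 18 known STAT5 targets, 10 were above 0 and 8 below, with a median of 0.047. They ran from -0.22 for Myc, a driver of growth, to 0.27 for Gzmb, a cytotoxic protease. Foxp3, the factor that defines Treg cells and a STAT5 target, was chosen for mention outside the naming rule and had 1885 and 1651 normalized counts in Ctrl and 1861 and 1646 in KO.

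**Figure D5:**
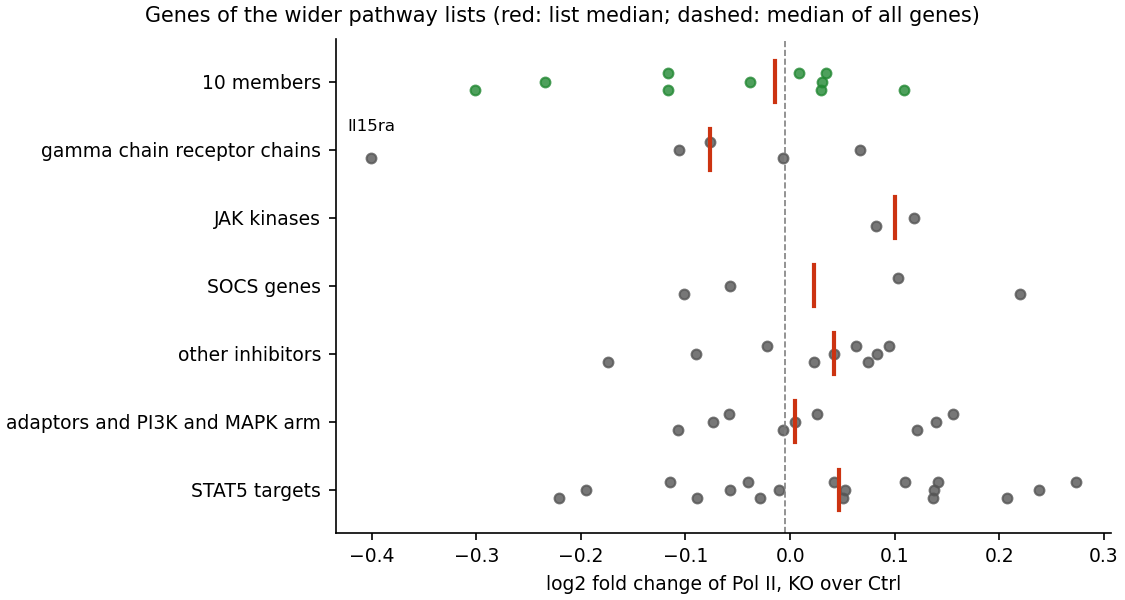
Log2 fold change of Pol II (KO over Ctrl) of the 10 members (green) and of the genes of 6 wider lists (grey), each point a gene, with the median of each list in red and the median of all genes dashed. Il15ra at -0.40 lies below all the others.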

How the data were processed

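Pol II CUT&Tag was read in 2 Ctrl and 2 KO libraries; the 1 IgG library is not analysed here. The authors mapped reads to mm10 with Bowtie2, kept unique reads without duplicates, called peaks with MACS2 against IgG and merged them with bedtools; versions are not given in the sources used here. The deposited table holds raw counts per merged peak, and no column lacked a sample (0 columns). Peaks were assigned with GENCODE vM21 of GRCm38, protein-coding genes first. Counts per peak and per gene sum were compared by DESeq2 1.42.0 (R 4.3.3), the tool of the study, with genotype as the only term, two-sided Wald tests and Benjamini-Hochberg adjustment over all features. The functions were also run on simulated gene counts with planted changes larger than those of any member. The outcome is not given here. Alternatives were edgeR 4.0.16, total-count scaling, a mean of at least 10 counts, the replicate number as a block, leaving out each library, and other ways of summing peaks. Normalized counts are counts over DESeq2 size factors (0.578 to 1.69 for genes), and levels per kb are CPM over peak length. Wider-list genes are named where the unadjusted p-value was under 0.05 or the log2 fold change was the highest or lowest of its list, and Foxp3 besides. Peaks are named where highest per kb, over the gene start or with an unadjusted p-value under 0.05. The members and lists were chosen with earlier results of these data known. A further list of the wider pathway is not reported here.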

Additional observations from a re-analysis of the deposited data

How the results depend on the processing

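No member was called at an adjusted p-value under 0.05 in the alternatives that gave one, of 13 at gene level and 8 at peak level. With the replicate block, independent filtering left 4 members (Cish, Jak3, Socs1 and Socs2) and 59 of the 114 member peaks without an adjusted p-value, so these could not be called there. Cish had no value for the gene body alone and Il2rg none for peaks of no other gene. Leaving out 1 library moved the log2 fold changes over -0.26 to 0.0076 for Il2ra, -0.0057 to 0.069 for Il2rb, -0.013 to 0.033 for Jak1 (-0.00043 without KO 2), -0.089 to 0.15 for Jak3 (-0.083 without Ctrl 1), -0.30 to 0.078 for Stat5b (0.040 without KO 2), -0.12 to 0.061 for Cish (0.0020 without Ctrl 1) and -0.21 to 0.31 for Socs1 (-0.19 without Ctrl 2), so their signs are not settled. With peaks of no other gene, Jak1 was -0.00088 and Jak3 -0.023. With the gene body alone Jak1 was -0.00088. By overlap Socs1 was -0.019, and with 10 kb on each side -0.054.

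The counts over all genes moved more. DESeq2 called 13 genes, 7 with peaks of no other gene, 8 with the gene body alone and 0 to 3 without 1 library, and edgeR called 0. Members with an unadjusted p-value under 0.05 numbered 0 by DESeq2 and 0 to 1 without 1 library. Peaks called numbered 0 by DESeq2, 27 by edgeR and 0 to 5 without 1 library, and member peaks with an unadjusted p-value under 0.05 numbered 1 by DESeq2, 2 by edgeR and 0 to 1 without 1 library. The cause was not tested.

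The shared replicate numbers are not stated to pair the libraries, and with 2 pairs the same-number deviations correlated at 0.233. With the replicate number as a block, DESeq2 called 116 genes and 25 peaks, 1 gene of the wider lists (Ctla4, adjusted p-value 0.0222) and no member that had an adjusted p-value, and 1 member (Il2rg, unadjusted p-value 0.0352) and 2 member peaks had an unadjusted p-value under 0.05. With a promoter window of 1 kb, the Ctrl promoter share was 9.94% for Il2ra, 17.3% for Jak1, 88.5% for Socs2 and 0.0% for Il2rb, Il2rg, Stat5b and Cish. The interval of Cish was the widest under the midpoint rule (SE 0.25 on 1 peak), and with all overlapping peaks its SE was 0.12.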
